A study of Mus musculus with 27 samples.

Results

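Genes that fibroblasts use for their surface receptors and their extracellular matrix were followed through reprogramming of mouse embryonic fibroblasts (MEFs) to partially reprogrammed cells (pre-iPSCs) and to induced pluripotent stem cells (iPSCs). The set was 10 of the 20156 genes of the expression tables, chosen by symbol: Thy1, Pdgfra, Pdgfrb, Vcam1, Fn1, Postn, Sparc, Lox, Dcn and Lum. Expression was measured by RNA-seq in 2 libraries per cell type. Mononucleosomes released by micrococcal nuclease were precipitated with antibodies to histone H3, H3K4me3 and H3K27me3, with 2 libraries per cell type, and to H3K9me3, with 1 library per cell type. The MEFs came from e13.5 embryos that carried a hemizygous Oct4-GFP transgene and a Rosa26 allele on a background of CBA/CaJ and C57BL/6J, with 129Sv/Jae mothers. The other cells were made from such MEFs with retroviral Yamanaka factors, so all 3 cell types share the reporter, and the pre-iPSCs and iPSCs derived from 2 clones that the sources do not tie to single libraries. Both were grown with leukaemia inhibitory factor on feeder cells that were themselves inactivated MEFs and were kept for 6 passages before RNA-seq, against at most 3 for the MEFs. RNA and chromatin of feeder fibroblasts could therefore enter the pre-iPSC and iPSC libraries, and in bulk samples fewer fibroblasts and less RNA per cell cannot be told apart. The MEFs were also digested with another amount of micrococcal nuclease and for another time than the other cells.

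Fibroblasts build and remodel connective tissue. Thy1, the 2 platelet-derived growth factor receptors Pdgfra and Pdgfrb, and the adhesion molecule Vcam1 lie on the cell surface. Fibronectin (Fn1), periostin (Postn) and Sparc are secreted matrix glycoproteins, lysyl oxidase (Lox) crosslinks collagen and elastin, and decorin (Dcn) and lumican (Lum) are small leucine-rich proteoglycans that bind collagen fibrils. H3K4me3 marks the promoters of active genes, and H3K27me3, laid down by Polycomb repressive complex 2, and H3K9me3 mark repressed chromatin.

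The members differed in the density of CpG dinucleotides at their promoters, a property that bears on both H3K4me3 and H3K27me3. Within 500 bp of the transcription start site (TSS), the ratio of observed to expected CpG was 0.69 at Fn1, 0.62 at Pdgfra and 0.60 at Lox, against a median of 0.60 over all 20156 promoters. It was 0.43 at Thy1 and 0.39 at Pdgfrb, and between 0.21 and 0.28 at Postn, Sparc, Lum, Dcn and Vcam1. The 250 bases upstream of 6 TSSs are shown 5′ to 3′ on the coding strand to let the CpG-rich Fn1 and the intermediate Thy1 be compared with Vcam1 and Postn, where H3K4me3 fell, and with the neighbours Dcn and Lum. Sequence and coordinates are of mm9, the build of the files, and capitals mark CpG.
Fn1, chr1:71699746-71699995, minus strand: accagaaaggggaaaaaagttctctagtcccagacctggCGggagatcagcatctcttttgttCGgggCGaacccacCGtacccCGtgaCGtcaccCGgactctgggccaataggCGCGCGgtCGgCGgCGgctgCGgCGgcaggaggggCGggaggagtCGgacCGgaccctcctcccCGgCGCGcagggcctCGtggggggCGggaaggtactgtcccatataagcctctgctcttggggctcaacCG
Thy1, chr9:43851217-43851466, plus strand: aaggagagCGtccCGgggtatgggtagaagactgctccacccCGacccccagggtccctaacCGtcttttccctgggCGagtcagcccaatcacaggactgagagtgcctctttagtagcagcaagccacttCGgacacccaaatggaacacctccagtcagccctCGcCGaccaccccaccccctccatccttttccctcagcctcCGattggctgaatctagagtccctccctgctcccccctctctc
Vcam1, chr3:115832607-115832856, minus strand: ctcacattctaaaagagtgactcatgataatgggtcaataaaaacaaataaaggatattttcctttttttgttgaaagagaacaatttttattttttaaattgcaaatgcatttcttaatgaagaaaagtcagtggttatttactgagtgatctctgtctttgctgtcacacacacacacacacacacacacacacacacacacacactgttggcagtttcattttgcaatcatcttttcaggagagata
Postn, chr3:54164779-54165028, plus strand: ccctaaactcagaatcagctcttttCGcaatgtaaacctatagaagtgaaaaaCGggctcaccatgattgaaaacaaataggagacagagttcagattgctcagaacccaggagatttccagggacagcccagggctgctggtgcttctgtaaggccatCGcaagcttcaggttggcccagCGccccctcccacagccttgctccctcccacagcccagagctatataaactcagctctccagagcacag
Dcn, chr10:96941884-96942133, plus strand: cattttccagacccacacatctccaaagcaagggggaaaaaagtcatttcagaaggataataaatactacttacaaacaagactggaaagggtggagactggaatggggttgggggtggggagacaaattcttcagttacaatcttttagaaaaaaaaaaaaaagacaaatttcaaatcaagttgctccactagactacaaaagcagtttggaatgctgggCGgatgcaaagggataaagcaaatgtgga
Lum, chr10:97027885-97028134, plus strand: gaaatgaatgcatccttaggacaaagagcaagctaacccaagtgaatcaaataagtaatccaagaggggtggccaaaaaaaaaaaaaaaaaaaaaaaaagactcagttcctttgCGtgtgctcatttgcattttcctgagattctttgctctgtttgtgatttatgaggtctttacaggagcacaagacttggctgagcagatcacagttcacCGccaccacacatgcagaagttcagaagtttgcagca

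These stretches held 24 CpG at Fn1, 9 at Thy1, 4 at Postn, 2 at Lum, 1 at Dcn and 0 at Vcam1. A set of 5 motifs was searched on both strands from 250 bases before to 50 after the start. TATAAA was found at Postn from -26 and, on the opposite strand, at Vcam1 from +36, and in 12.7% of all promoters. TGANTCA, a pattern wider than the site bound by AP-1, was found at Vcam1 from -233 and at Lum from -208, and in 6.80% of all promoters. It read tgactca at Vcam1 and tgaatca at Lum, of which only the first is the AP-1 site. GGAATG, the site of TEAD factors, was found at Dcn from -150 and from -40, and in 12.8% of all promoters. CCAAT was found at Thy1, Pdgfrb, Fn1 and Lox (38.1% of all promoters) and GGGCGG at Fn1, Lox and Dcn (49.1%). A match describes the letters only.

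The H3 libraries held 67362868 to 108211816 reads in called nucleosomes and the libraries of the 3 marks 12007350 to 15222040. H3 replicate 1 of the pre-iPSCs stood apart, with a mean fuzziness (spread of reads about a nucleosome's centre) of 26.3 bp against 31.6 to 32.4 bp in the other H3 libraries. Markers of each cell type were checked against the labels. Summed over 12 pluripotency genes, expression in FPKM, fragments scaled to transcript length and library size, was 0.147 and 1.03 in MEFs, then 936 and 3713 in pre-iPSCs, then 2623 and 2480.0 in iPSCs. Of the pre-iPSC sums Pou5f1 (Oct4) made up 378 and 3184 FPKM, Sox2 272 and 171, and Tdgf1 228 and 333. Pou5f1 and Sox2 are among the delivered Yamanaka factors. Nanog read 0.519 and 0 FPKM in pre-iPSCs against 49.5 and 73.6 in iPSCs, and Zfp42 0 and 0.0837 against 56.0 and 63.9. Of the 12 genes 8 and 7 reached 1 FPKM in pre-iPSCs and 12 and 12 in iPSCs. Summed over 10 fibroblast genes outside the set, expression was 4620.3 and 11124 FPKM in MEFs, then 406 and 518 in pre-iPSCs, then 202 and 305 in iPSCs. Of these sums S100a4, a calcium-binding protein, made up 763 and 6944 FPKM in MEFs, then 149 and 431 in pre-iPSCs, then 7.42 and 87.2 in iPSCs, and it was the only one of the 10 called between pre-iPSCs and iPSCs. All 10 of these fell in both pre-iPSCs and iPSCs, but none was absent: Col1a1, a chain of collagen I, read 2144 and 1614 FPKM in MEFs, then 93.7 and 27.7 in pre-iPSCs, then 74.7 and 70.6 in iPSCs. The smooth muscle and pericyte markers Acta2 (5762 and 9151 FPKM in MEFs) and Tagln (1807 and 3183) were also high in MEFs, and 5 of 6 tested genes of that list fell in either comparison with MEFs. Other lists summed to less in MEFs. Endothelial genes summed to 3.21 and 4.68 FPKM with Pecam1 at 0 in both, blood and macrophage genes to 9.35 and 4.33, skeletal muscle genes to 0.0727 and 0.199, cartilage genes to 39.6 and 30.0, and epithelial genes to 4.93 and 5.79. Emcn, an endothelial gene at 1.22 and 4.50 FPKM in MEFs, fell in both comparisons with MEFs (-1.55 and -1.53 on the log2 scale). It was the only fall among 4 tested endothelial genes, of which 2 rose in pre-iPSCs and 1 in iPSCs. Of the 3 cartilage genes 2 fell in pre-iPSCs (Col2a1 and Acan) and 2 in iPSCs (Col2a1 and Sox9). Col2a1, a collagen of cartilage, was at 30.9 and 18.3 FPKM in MEFs and at most 1.32 in the other libraries. The part of such cells in the falls of the members was not tested.

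Expression was compared to ask which fibroblast genes were down already in pre-iPSCs and which only in iPSCs. Calls required an adjusted p under 0.05 in limma over 12401 tested genes and a change of at least 2-fold, on the log2(FPKM + 1) scale, which understates changes of low genes. In pre-iPSCs 6 of 10 members fell and none rose, where 9.0% of all tested genes fell and 7.39% rose. In iPSCs 7 of 10 fell and none rose, where 15.5% of all genes fell and 10.3% rose. The medians of the members were -2.98 and -2.84 on the log2 scale, against -0.04 and -0.14 over all genes, which quantile normalization moved to 0.02 and 0.05 with 6 members called in each. The MEF libraries serve in both comparisons, and the study calls the pairs biological replicates. Values below are given for replicate 1 and then replicate 2.

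Among the surface proteins, Thy1 (chr9:43851467-43856662, plus strand), a glycophosphatidylinositol-anchored glycoprotein used to sort fibroblasts from reprogramming cells, measured 496 and 319 FPKM in MEFs, then 87.1 and 26.3 in pre-iPSCs, then 41.3 and 30.5 in iPSCs. Both later cell types lay below both MEF libraries, by -3.02 ± 0.43 (SE, adjusted p = 0.00495) and -3.45 ± 0.43 (adjusted p = 0.00224) on the log2 scale. Pdgfrb (chr18:61204804-61244721, plus), the receptor for PDGF-BB and PDGF-DD, measured 65.9 and 28.1 FPKM in MEFs, then 5.19 and 1.57 in pre-iPSCs, then 1.89 and 3.07 in iPSCs. Its change was -3.47 ± 0.51 (adjusted p = 0.00542) and -3.68 ± 0.51 (adjusted p = 0.00324). Vcam1 (chr3:115812938-115832606, minus), the counter-receptor of integrin α4β1, measured 32.9 and 17.8 FPKM in MEFs, then 4.10 and 1.11 in pre-iPSCs, then 2.26 and 5.77 in iPSCs. It changed by -2.94 ± 0.58 (adjusted p = 0.0146) and -2.43 ± 0.58 (adjusted p = 0.0217). Pdgfra (chr5:75552191-75594229, plus), the receptor that also binds PDGF-AA, was low throughout, at 4.28 and 5.18 FPKM in MEFs, then 3.25 and 0.633 in pre-iPSCs, then 1.92 and 3.35 in iPSCs. Its MEF libraries lay above the other 4, but neither comparison passed (-1.12 ± 0.52, adjusted p = 0.192, and -0.68 ± 0.52, adjusted p = 0.372). Whether the 2 receptors differed in their change was not tested.

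The matrix glycoproteins started high in MEFs. They lay at the 99.8th and 99.7th percentile of all genes for Sparc, the 99.7th and 98.6th for Fn1 and the 98.2th and 93.0th for Postn. Sparc (chr11:55208003-55233582, minus) measured 1345 and 2800.2 FPKM in MEFs, then 199.8 and 101 in pre-iPSCs, then 145 and 179 in iPSCs, a change of -3.76 ± 0.59 (adjusted p = 0.00668) and -3.59 ± 0.59 (adjusted p = 0.00579). It stayed at or above the 96.8th percentile of all genes in every pre-iPSC and iPSC library. Postn (chr3:54165029-54194963, plus), which links collagen to other matrix proteins, measured 203 and 67.7 FPKM in MEFs, then 12.5 and 7.38 in pre-iPSCs, then 10.3 and 30.7 in iPSCs. The change was -3.48 ± 0.67 (adjusted p = 0.0136) and -2.64 ± 0.67 (adjusted p = 0.0265), and the second iPSC library reached 45.3% of the MEF library of its table where the first reached 5.08%. Fn1 (chr1:71632097-71699745, minus), the ligand of integrin α5β1, measured 1317 and 397 FPKM in MEFs, then 237 and 245 in pre-iPSCs, then 80.4 and 94.7 in iPSCs, so that each cell type lay below the one before without overlap. Only the change from MEFs to iPSCs passed (-3.04 ± 0.58, adjusted p = 0.00972), and neither step did (-1.58 ± 0.58, adjusted p = 0.109, into pre-iPSCs, and -1.45 ± 0.58, adjusted p = 0.198, from pre-iPSCs to iPSCs). The start of Fn1 is overlapped by Apol7d on the opposite strand, and reads of the 2 genes cannot be told apart there.

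Lox (chr18:52676892-52689362, minus) had the largest change of the 10 in both comparisons. It measured 514 and 212 FPKM in MEFs, then 9.09 and 4.35 in pre-iPSCs, then 3.27 and 17.0 in iPSCs. The change was -5.49 ± 0.75 (adjusted p = 0.00426) and -5.24 ± 0.75 (adjusted p = 0.00366). Relative to the MEF library of the same table, the pre-iPSC libraries held 1.77% and 2.06% and the iPSC libraries 0.637% and 8.02%.

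Dcn (chr10:96942134-96980796, plus) and Lum (chr10:97028135-97035337, plus) did not follow the other members. Dcn measured 9.0 and 36.6 FPKM in MEFs, then 21.9 and 4.37 in pre-iPSCs, then 30.2 and 40.5 in iPSCs, and the MEF range overlapped that of either other cell type. Lum measured 0.348 and 5.84 FPKM in MEFs, then 4.77 and 0.357 in pre-iPSCs, then 5.88 and 8.59 in iPSCs. Neither passed against MEFs (Dcn -0.81 ± 0.82, adjusted p = 0.565, and 0.89 ± 0.82, adjusted p = 0.463, and Lum -0.12 ± 0.89, adjusted p = 0.958, and 1.42 ± 0.89, adjusted p = 0.283). Both iPSC libraries lay above both pre-iPSC libraries for both genes, as for 20.9% of all tested genes, and above both MEF libraries for Lum, as for 26.7%. The replicates of these genes were far apart, 4.06-fold for Dcn and 16.8-fold for Lum in MEFs, and the direction against MEFs turned when 1 library was left out. Dcn in iPSCs was -0.48 without MEF replicate 1, and Dcn in pre-iPSCs was 0.57 without MEF replicate 2 and 0.82 without pre-iPSC replicate 2. The same omissions gave -0.15, 1.46 and 1.63 for Lum. Dcn was called lower in pre-iPSCs without MEF replicate 1 (-2.18) or pre-iPSC replicate 1 (-2.43), and Dcn (2.26) and Lum (2.99) were called higher in iPSCs without MEF replicate 2.

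**Figure D1:**
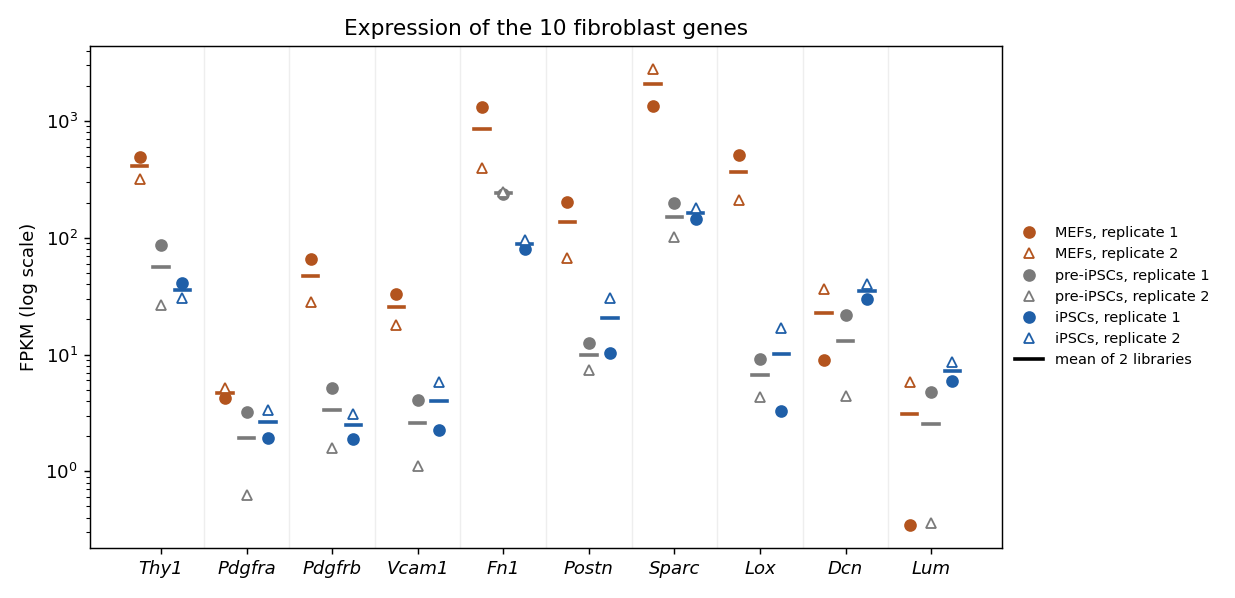
Expression of the 10 genes in each library, as FPKM on a log axis, with filled circles for replicate 1, open triangles for replicate 2 and a bar for the mean of 2 libraries. For 8 genes both MEF libraries (brown) lie above all pre-iPSC (grey) and iPSC (blue) libraries (29.3% of all tested genes lie lower without overlap in pre-iPSCs and 36.2% in iPSCs), while Dcn and Lum overlap with MEFs in pre-iPSCs and are highest on average in iPSCs.

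Between pre-iPSCs and iPSCs limma called 0 of 10 members, where it called 3.91% of all genes higher and 4.71% lower in iPSCs; at an unadjusted p below 0.05 there were 2684 genes, 1 of them a member (Fn1). Vcam1, which the study assayed further at this step, differed by 0.52 ± 0.58 (adjusted p = 0.698). In replicate 1 it was lower in iPSCs (2.26 against 4.10 FPKM) and in replicate 2 higher (5.77 against 1.11 FPKM). Without pre-iPSC replicate 2 or iPSC replicate 2 its sign turned (-0.17 and -0.54). In pre-iPSCs 9 of 10 members were higher in replicate 1, as were 9 of the 10 other fibroblast markers. In iPSCs 9 of 10 members and 7 of the 10 markers were higher in replicate 2. In MEFs 6 of 10 members were higher in replicate 1 and 8 of the 10 markers in replicate 2. The share of all genes in either order is not given here, so a difference between whole libraries cannot be told apart from these counts. The part of feeder cells in these differences was not tested.

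The calls rested on 2 libraries per cell type, and single libraries mattered. Without pre-iPSC replicate 2, 3 members were called in pre-iPSCs (Pdgfrb, Lox and Postn), and without iPSC replicate 1, 2 were called in iPSCs (Pdgfrb and Lox). The calls over all genes moved as well, from 1116 to 415 lower in pre-iPSCs and from 1927 to 295 lower in iPSCs. From pre-iPSCs to iPSCs, Dcn and Lum were called higher and Fn1 lower with either MEF library left out, where 2133 and 2122 genes were called against 1069 with all libraries. Without pre-iPSC replicate 1 Dcn and Lum were called higher (3.32 and 3.29), and without pre-iPSC replicate 2 they were at 0.07 and -0.21. The study placed Lox, Pdgfrb, Postn and Vcam1 among its changing genes on these same libraries, so their direction is not independent evidence.

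Partner genes of the members were taken from 5 lists. Except for Pdgfb, Omd, Prelp and Podn, those named are the highest of their list in MEFs, where a fall starts. Of all tested genes 9.0% fell in pre-iPSCs and 15.5% in iPSCs. Of 13 relatives of lysyl oxidase and elastic fibre genes, all tested, 10 fell in pre-iPSCs and 11 in iPSCs, with medians of -3.41 and -3.50. Loxl1, which is needed for elastic fibres, measured 171 and 185 FPKM in MEFs, then 16.2 and 5.13 in pre-iPSCs, then 9.45 and 8.96 in iPSCs. Loxl2, another crosslinking enzyme, measured 248 and 166, then 31.9 and 28.9, then 10.9 and 26.2 FPKM. Fbln2, a fibulin of elastic fibres, measured 472 and 246 FPKM in MEFs, 94.3 and 131 in pre-iPSCs (-1.61, adjusted p = 0.102) and 14.4 and 41.8 in iPSCs (-3.74, adjusted p = 0.00450).

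Among the other small leucine-rich proteoglycans, 4 of 7 tested genes fell in both comparisons, with medians of -3.33 and -3.01 against -0.81 and 0.89 for Dcn. Omd, Prelp and Podn passed in neither. Omd measured 3.06 and 6.44 FPKM in MEFs, then 0.533 and 3.11 in pre-iPSCs, then 2.65 and 6.74 in iPSCs. Biglycan (Bgn), the closest relative of decorin, measured 1834 and 1714 FPKM in MEFs, then 175 and 77.5 in pre-iPSCs, then 94.1 and 145 in iPSCs. It changed by -3.92 in pre-iPSCs (adjusted p = 0.00436) and by -3.91 in iPSCs (adjusted p = 0.00324 in limma). Fmod and Ogn, which like lumican bind collagen fibrils or matrix, fell too, with changes of -4.13 and -4.24 in pre-iPSCs, then -4.41 and -3.16 in iPSCs. The falls of these relatives and the course of Dcn were not compared by a test.

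Of 10 tested matricellular genes 6 fell in pre-iPSCs and 7 in iPSCs. Thbs1, a thrombospondin, went from 1658 and 607 FPKM in MEFs to 46.4 and 23.6 in pre-iPSCs, then to 9.88 and 32.8 in iPSCs. Ctgf went from 1409 and 669 FPKM to 59.0 and 196 and then to 17.5 and 56.1. Spp1 (osteopontin) measured 437 and 1576 FPKM in MEFs, then 496 and 145 in pre-iPSCs, then 115 and 278 in iPSCs, and neither comparison passed. Of 9 integrin genes for fibronectin and Vcam1, 5 fell and 1 rose in pre-iPSCs, and 6 fell and 1 rose in iPSCs. Itga5 and Itgb1, the subunits of the fibronectin receptor, fell, with changes of -3.14 and -2.62 in pre-iPSCs, then -2.43 and -3.25 in iPSCs, and so did Itgb5 (-1.36 and -2.56).

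Of 4 PDGF ligands 1 fell and 1 rose in pre-iPSCs, and 3 fell and 0 rose in iPSCs. Whether the ligands differed from each other was not tested. Pdgfa, the ligand of Pdgfra, measured 32.2 and 108 FPKM in MEFs, then 51.2 and 64.0 in pre-iPSCs, then 8.94 and 15.1 in iPSCs, and its iPSC level was below that of pre-iPSCs (-2.20, adjusted p = 0.0218) and of MEFs (-2.25, adjusted p = 0.00940). Pdgfc measured 27.1 and 21.9 FPKM in MEFs, then 3.14 and 1.72 in pre-iPSCs, then 0.721 and 1.66 in iPSCs, with changes of -2.92 and -3.57. Pdgfb, named after its values were seen, measured 0.510 and 0.211 FPKM in MEFs, then 1.92 and 4.23 in pre-iPSCs, then 0.764 and 1.05 in iPSCs, and rose in pre-iPSCs (1.53, adjusted p = 0.0317). Pdgfd, a ligand of Pdgfrb, measured 5.66 and 1.08 FPKM in MEFs and at most 0.660 in every other library, and passed in iPSCs (-1.53, adjusted p = 0.0472) but not in pre-iPSCs (-1.50, adjusted p = 0.0680).

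H3K4me3 was counted within 1000 bp of each TSS to ask which promoters lost the active mark. Against MEFs, edgeR called 1 of 10 members lower in pre-iPSCs, where 0.797% of 17700 tested promoters were lower and 3.05% higher, and 2 of 10 lower in iPSCs, where 4.01% were lower and 9.74% higher. Vcam1 held 43 and 36 reads in MEFs, then 10 and 14 in pre-iPSCs, then 8 and 14 in iPSCs. Its change was -1.39 ± 0.36 on the log2 scale (adjusted p = 0.0207) and -1.53 ± 0.37 (adjusted p = 0.00481). Postn held 28 and 42 reads in MEFs, then 15 and 10 in pre-iPSCs, then 11 and 8 in iPSCs. Its change passed in iPSCs (-1.58 ± 0.40, adjusted p = 0.00597) and missed the threshold in pre-iPSCs (-1.17 ± 0.37, adjusted p = 0.0622). Both promoters are among the CpG-poor ones printed above.

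At the other promoters the change did not pass the test. Pdgfrb held 56 and 37 reads in MEFs, then 26 and 16 in pre-iPSCs, then 25 and 24 in iPSCs (-0.82 ± 0.30, adjusted p = 0.103, and -0.61 ± 0.29, adjusted p = 0.140). Lox held 55 and 37, then 36 and 23, then 26 and 26 reads. Sparc held 43 and 39, then 23 and 21, then 34 and 23 reads. At the CpG-rich Fn1 the reads were 61 and 51 in MEFs, then 40 and 43 in pre-iPSCs, then 41 and 27 in iPSCs, and at Thy1 54 and 35, then 30 and 25, then 39 and 35. Thy1 RNA fell 10.9-fold in iPSCs on the scale of the test, and its promoter mark differed by 0.04 ± 0.26 (adjusted p = 0.931). Pdgfra held 48 and 44 reads in MEFs, then 25 and 30 in pre-iPSCs, then 44 and 42 in iPSCs. Its TSS in the tables lies 3875 bp downstream of the outermost annotated start, and around that start the reads were 41 and 27, then 24 and 29, then 29 and 31.

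Dcn and Lum did not pass either. Dcn held 29 and 24 reads in MEFs, then 9 and 16 in pre-iPSCs, then 7 and 16 in iPSCs (-0.75 ± 0.41, adjusted p = 0.300, and -0.89 ± 0.41, adjusted p = 0.139). Lum held 7 to 10 reads in each of the 6 libraries, at most the 18.8th percentile of all genes. In iPSCs, where Dcn and Lum RNA was highest on average, both promoters lay at or below the 27.8th percentile of all genes for the mark.

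**Figure D2:**
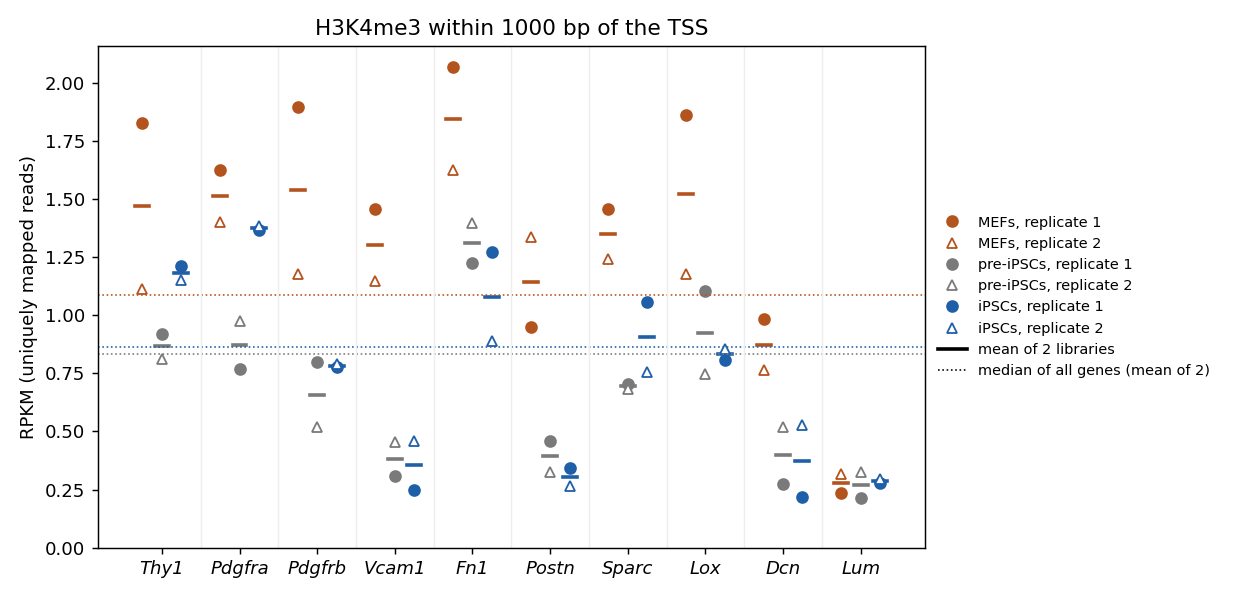
H3K4me3 within 1000 bp of the TSS of the 10 genes in each library, in RPKM (reads scaled to window length and uniquely mapped reads), with the median of all genes of each cell type, averaged over its libraries, as a dotted line. The MEF libraries lie above all pre-iPSC libraries for 9 genes (46.0% of all genes lie lower without overlap in pre-iPSCs). The gap is widest in proportion at Vcam1 and Postn, and Lum is flat.

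Scaled to window length and uniquely mapped reads (RPKM), 9 of 10 members were lower in both pre-iPSC libraries than in both MEF libraries, as were 46.0% of all genes, and 8 of 10 were lower in iPSCs, as were 44.4% of all genes. With uniquely mapped reads as library sizes the median of all promoters was -0.39 and -0.37, the calls turned from 540 higher and 141 lower to 232 and 1121 in pre-iPSCs and from 1724 and 709 to 841 and 2356 in iPSCs, and 4 members were called lower in each. With TMM scaling, which sets the typical promoter near 0, the medians of the members were -0.50 and -0.47, against -0.01 and -0.03 over all promoters. DESeq2 called 0 members and 31 of all promoters in pre-iPSCs, and 0 members and 119 promoters in iPSCs, and gave no adjusted p for Lum. Without pre-iPSC replicate 1 no member was called in pre-iPSCs (Vcam1 -1.08), and without MEF replicate 1 Postn (-1.54) was called there in place of Vcam1 (-1.37). In iPSCs 1 member was called without MEF replicate 2 (Postn lost, -1.15) or iPSC replicate 1 (Vcam1 lost, -1.09). From pre-iPSCs to iPSCs edgeR called 0 of 10 members and 0 genes, with 1581 genes at an unadjusted p below 0.05, 1 of them a member (Pdgfra, 0.62 ± 0.27), and DESeq2 called 0 genes as well.

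Along the genes, H3K4me3 of MEFs reached several kilobases past the start of highly expressed members. Over the 5000 bp downstream of the Lox TSS it averaged 2.82 and 1.82 RPKM in MEFs, then 0.69 and 0.57 in pre-iPSCs, then 0.41 and 0.50 in iPSCs. Over the 5000 bp upstream of Lox it was 0.83 and 0.45, then 0.45 and 0.38, then 0.41 and 0.50. Downstream of Pdgfrb it was 2.29 and 1.90 RPKM in MEFs and 0.57 to 0.87 in the other 4 libraries, and downstream of Vcam1 1.73 and 1.01 against 0.32 to 0.39. Over the whole gene, TSS to transcript end, Lox held 299 and 250 reads in MEFs, against 91 and 82 in pre-iPSCs, then 61 and 63 in iPSCs. Per length its MEF libraries, at 1.62 and 1.28 RPKM, lay above 96.8% of all genes. In proportion the gap between MEFs and the other cells at Lox was larger over the gene than within 1000 bp of the TSS. Counted over the gene, 7 members were lower without overlap in pre-iPSCs and 8 in iPSCs, where 28.7% and 28.6% of all genes were, and Pdgfra was higher in both, as were 27.4% and 34.3% of all genes (202 and 252 reads, then 290 and 310, then 315 and 258). No test was run on these windows.

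**Figure D3:**
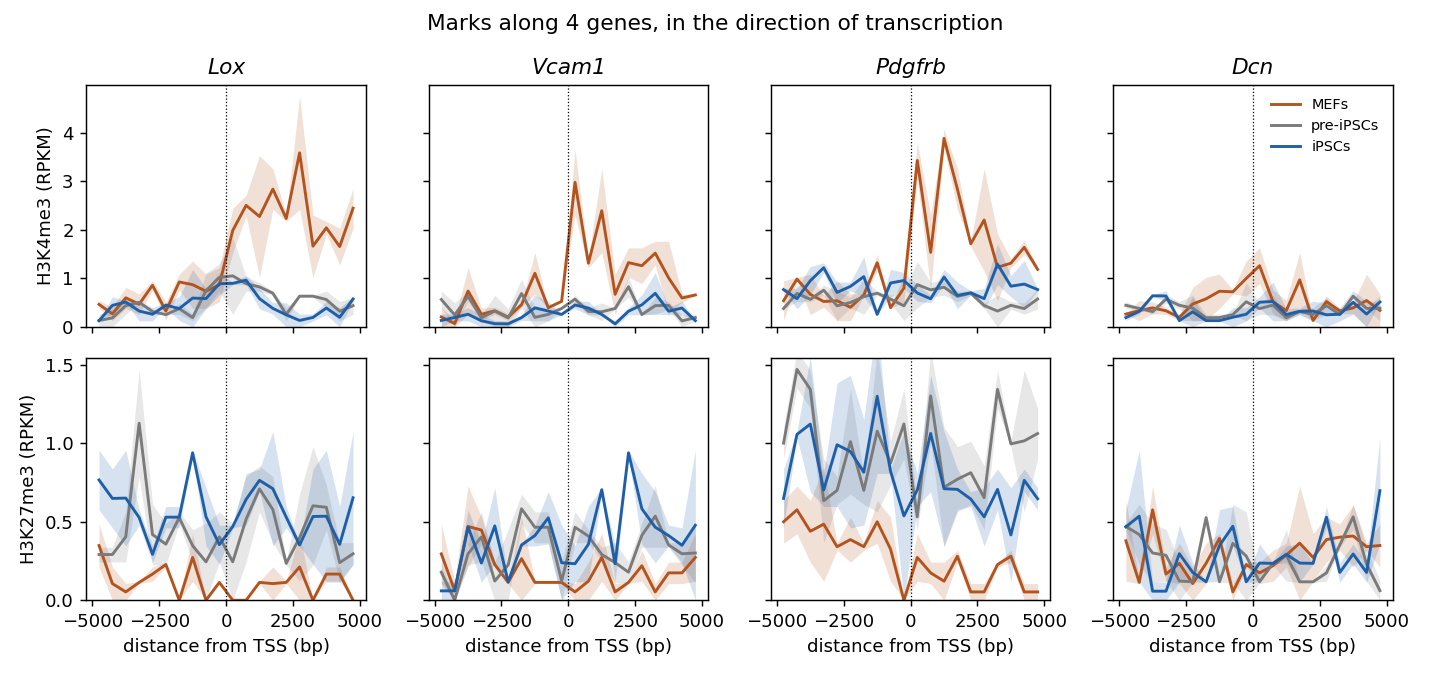
H3K4me3 (top) and H3K27me3 (bottom) along Lox, Vcam1, Pdgfrb and Dcn in 500 bp bins by distance from the TSS, in RPKM, with lines for the mean of 2 libraries and shading between them. H3K4me3 of MEFs extends downstream of the TSS at Lox, Vcam1 and Pdgfrb and is lower there in the other cells, H3K27me3 of pre-iPSCs and iPSCs lies above that of MEFs in most bins along Lox and Pdgfrb, and the lines lie closer together at Dcn.

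H3K27me3 was compared to ask which members gained the Polycomb mark. Counted over the gene, 7 of 10 members gained reads in pre-iPSCs relative to MEFs and 2 lost them, where 9.91% of 17662 tested genes were higher and 11.5% lower. In iPSCs the same 7 members were higher and none was lower, where 14.2% of genes were higher and 12.7% lower. The medians of the members were 0.98 and 1.00 against 0.06 and 0.07 over all genes.

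Pdgfrb gained most. It held 105 and 125 reads in MEFs, then 563 and 511 in pre-iPSCs, then 445 and 524 in iPSCs, a rise of 2.03 ± 0.18 (adjusted p = 6.07e-07) and 1.88 ± 0.18 (adjusted p = 1.34e-06). In RPKM it went from 0.159 and 0.166, below the median of all genes, to 0.794 and 0.783 and then 0.642 and 0.784, at or above the 89.5th percentile. Sparc held 25 and 52 reads in MEFs, then 135 and 148 in pre-iPSCs, then 137 and 123 in iPSCs, a rise of 1.71 ± 0.26 (adjusted p = 0.000137) and 1.57 ± 0.26 (adjusted p = 0.000262). Lox held 20 and 32, then 80 and 73, then 85 and 101 reads (1.37 ± 0.29, adjusted p = 0.00242, and 1.65 ± 0.28, adjusted p = 0.000318). Per length, Sparc and Lox lay between the 5.79th and 18.4th percentile of all genes in MEFs and between the 43.5th and 77.6th in the later cells. Thy1 held 20 and 37 reads in MEFs, then 68 and 73 in pre-iPSCs, then 70 and 76 in iPSCs (1.13 ± 0.29, adjusted p = 0.0104, and 1.17 ± 0.29, adjusted p = 0.00651). Per length it lay at or above the 94.5th percentile in the later cells.

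Vcam1 held 52 and 63 reads in MEFs, then 109 and 141 in pre-iPSCs, then 153 and 149 in iPSCs (0.94 ± 0.25, adjusted p = 0.0110, and 1.19 ± 0.24, adjusted p = 0.00152). Pdgfra held 133 and 217, then 386 and 385, then 336 and 370 reads (0.96 ± 0.18 and 0.83 ± 0.18), so that it gained the mark over the gene while its RNA change did not pass. Fn1 held 122 and 131, then 346 and 238, then 310 and 163 reads (0.99 ± 0.22 and 0.68 ± 0.22), and its level in iPSC replicate 2, 0.144 RPKM, was still only at the 14.1th percentile. Postn, whose promoter lost H3K4me3 in iPSCs, held 131 and 138, then 193 and 165, then 186 and 171 reads and did not pass (0.20 ± 0.19, adjusted p = 0.441, and 0.20 ± 0.19, adjusted p = 0.447).

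Over the gene, Dcn and Lum went the other way in pre-iPSCs. Lum held 50 and 45 reads in MEFs, then 23 and 26 in pre-iPSCs, then 44 and 34 in iPSCs, and fell in pre-iPSCs (-1.16 ± 0.32, adjusted p = 0.0144). Dcn held 190 and 205, then 165 and 145, then 177 and 162 reads, and fell in pre-iPSCs (-0.56 ± 0.19, adjusted p = 0.0373). Against MEFs the iPSC values were -0.50 ± 0.30 (adjusted p = 0.211) and -0.43 ± 0.18 (adjusted p = 0.0856). Of 12 alternatives 3 lost the call of Lum in pre-iPSCs and 6 lost that of Dcn, while the direction was kept. Both calls were lost under another scaling. With uniquely mapped reads as library sizes Lum was at -0.90 ± 0.30 (adjusted p = 0.0639) and Dcn at -0.30 ± 0.17 (adjusted p = 0.207) in pre-iPSCs, and the 7 gains were still called. The median of all genes moved to 0.31 and 0.33, the calls over all genes from 1751 higher and 2024 lower to 2617 and 595 in pre-iPSCs, and from 2507 and 2251 to 3407 and 629 in iPSCs. Without MEF replicate 1, 5 members and 1362 of all genes were called in pre-iPSCs, against 9 and 3775 with all libraries, and Thy1, Vcam1, Dcn and Lum were not.

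**Figure D4:**
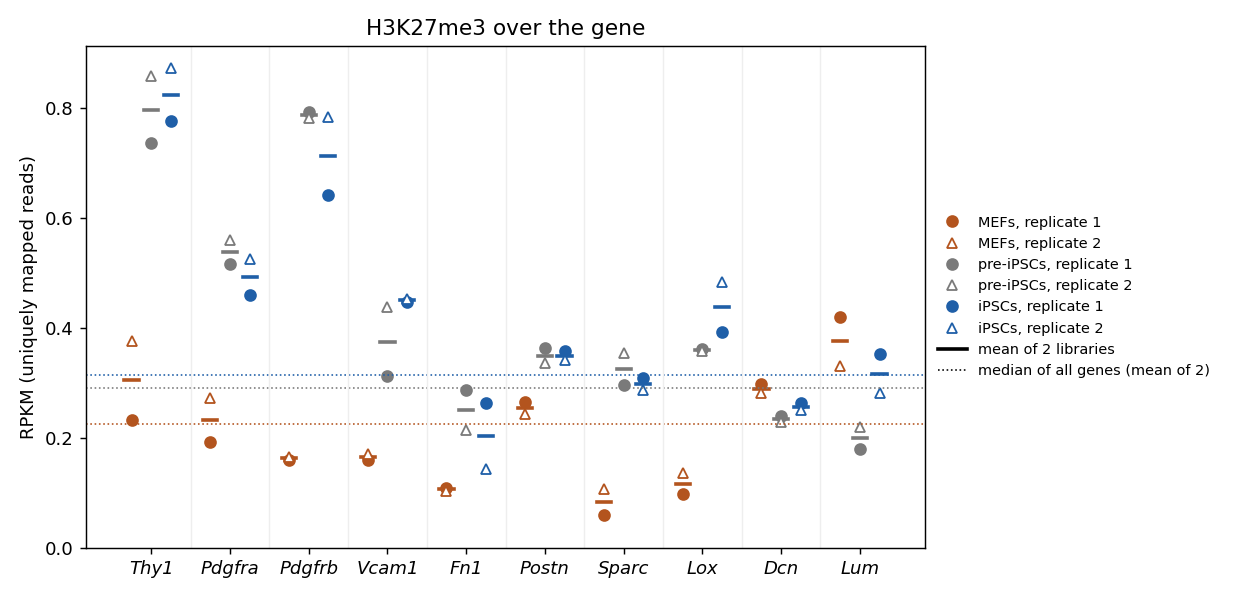
H3K27me3 over the gene, TSS to transcript end, for the 10 genes in each library, in RPKM of uniquely mapped reads, with the median of all genes of each cell type, averaged over its libraries, as a dotted line. Thy1, Pdgfra, Pdgfrb, Vcam1, Fn1, Postn, Sparc and Lox lie higher in all 4 pre-iPSC and iPSC libraries than in MEFs, whereas Dcn lies lower in all 4. Of all genes 46.8% lie higher without overlap in pre-iPSCs and 46.0% in iPSCs.

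Within 1000 bp of the TSS, 7 members had enough H3K27me3 reads to be tested, and Dcn, Fn1 and Lum did not. Of the 7 tested members, 4 were higher in pre-iPSCs and 3 in iPSCs, where 5.01% and 7.33% of 10407 tested promoters were, and none was lower, where 3.09% and 3.88% were. The filter kept a promoter with enough reads in a few libraries of any cell type. Lox, Pdgfrb, Vcam1 and Sparc passed it through pre-iPSCs or iPSCs, where they held more reads. Every member called is among them. The counts of members called, and the lack of falls, were therefore set in part by the filter and are not support for a gain. Lox held 1 read in each MEF library, 12 in each pre-iPSC library and 16 and 18 in iPSCs. The ratio of RPKM to MEFs was 12.4 (exact 95% counting interval 3.09 to 109) in pre-iPSCs and 17.6 (4.52 to 151) in iPSCs, and edgeR gave adjusted p = 0.00102 and 5.1e-05. Pdgfrb held 4 and 10 reads in MEFs, then 30 and 35 in pre-iPSCs, then 20 and 33 in iPSCs (2.25 ± 0.41, adjusted p = 9.58e-05, and 1.91 ± 0.42, adjusted p = 0.00113). Vcam1 held 4 and 3, then 14 and 11, then 10 and 13 reads (adjusted p = 0.0286 and 0.0461), but of 11 alternatives 6 lost the call in pre-iPSCs and 9 that in iPSCs, where adjusted p ranged from 0.0395 to 0.289. Sparc held 1 and 6 reads in MEFs, then 12 and 15 in pre-iPSCs, then 3 and 4 in iPSCs, so that only pre-iPSCs were called higher (1.96 ± 0.61, adjusted p = 0.0295) although over the gene both comparisons passed. Of 11 alternatives 5 lost this call of Sparc. Around the outer start of Pdgfra, which the table TSS misses, H3K27me3 reads were 6 and 12 in MEFs, then 20 and 18 in pre-iPSCs, then 20 and 22 in iPSCs. At these read numbers the calls depended on the settings. DESeq2 called 1 member in pre-iPSCs and 0 in iPSCs, with 54 and 44 of all promoters, and gave no adjusted p for 5 (Dcn, Fn1, Lum, Sparc and Vcam1). With single libraries left out the edgeR calls moved too, both for the members and over all promoters.

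From pre-iPSCs to iPSCs edgeR called 0 members for H3K27me3, both over the gene, where it called 0.855% of genes higher and 0.204% lower, and around the TSS, where it called 0.663% higher and 0.135% lower. At an unadjusted p below 0.05 there were 1681 genes over the gene, 0 of them members, and 1190 around the TSS, 1 of them a member (Sparc, -1.96 ± 0.61, adjusted p = 0.105). DESeq2 called 0 members in both.

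Promoters were also sorted by the marks they held above 1 RPKM. H3K4me3 alone was held by 7 and 8 of 10 members in MEFs, then 2 and 1 in pre-iPSCs, then 4 and 2 in iPSCs, where 55.7% and 46.8%, 40.1% and 35.6%, and 40.3% and 33.9% of all genes held it. No member held both marks in any library, where 0.347% to 0.858% of all genes did. Scaled to reads in calls instead, Thy1 held both in pre-iPSC replicate 2 and in iPSC replicate 1. Pdgfrb and Thy1 held H3K27me3 alone in pre-iPSC replicate 2, as did 0.928% of all genes there, and in no other library. Fn1 held H3K4me3 alone in all libraries except iPSC replicate 2. Dcn and Lum held neither mark in any library, where 42.6% to 65.1% of all genes per library held neither. Within 500 bp, however, Dcn reached 1.49 RPKM of H3K4me3 in MEF replicate 1.

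Histone H3 within 1000 bp of the TSS gave no calls. edgeR and DESeq2 called 0 members and 0 of 19560 genes in each of the 3 comparisons, and at an unadjusted p below 0.05 there were 373, 105 and 296 genes (pre-iPSCs against MEFs, iPSCs against pre-iPSCs, iPSCs against MEFs), of which 1, 0 and 0 were members. The pre-iPSC libraries stood far apart at some members and not at others. Pdgfrb held 37 and 49 reads in MEFs, then 428 and 84 in pre-iPSCs, then 162 and 66 in iPSCs, and Thy1 43 and 56, then 285 and 43, then 172 and 56. By contrast Vcam1 held 45 and 40, then 45 and 51, then 67 and 57 reads, and Dcn 43 and 47, then 47 and 47, then 70 and 47. In pre-iPSCs Lox held 260 and 37 reads, Sparc 218 and 37, Pdgfra 208 and 23, Fn1 137 and 22, Postn 111 and 61, and Lum 61 and 41. Without pre-iPSC replicate 2, 5 members and 4589 genes were called against MEFs, and 1 member and 2146 genes between pre-iPSCs and iPSCs. In RPKM all 10 members were higher in both iPSC libraries than in both MEF libraries, as were 43.0% of all genes. The digestion of MEFs differed from that of the other cells, and its part was not tested.

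H3K9me3 had 1 library per cell type, so no test was possible and intervals cover counting error only. Over the gene Pdgfrb measured 0.288 RPKM in MEFs (exact 95% Poisson interval 0.247 to 0.334), 0.560 in pre-iPSCs (0.503 to 0.621) and 0.522 in iPSCs (0.466 to 0.583), with medians of all genes of 0.293, 0.363 and 0.348. Fn1 measured 0.257 (0.227 to 0.290), 0.390 (0.354 to 0.429) and 0.357 (0.321 to 0.396), and Vcam1 0.207 (0.159 to 0.265), 0.381 (0.316 to 0.455) and 0.320 (0.259 to 0.391). Pdgfrb lay at the 47.8th percentile of all genes in MEFs, the 95.8th in pre-iPSCs and the 88.8th in iPSCs. Dcn measured 0.323 (0.278 to 0.372), 0.258 (0.220 to 0.302) and 0.267 (0.227 to 0.312), and so did not rise. Around the TSS, Lox held 3, 13 and 10 reads, Pdgfrb 5, 18 and 12, and Lum 3, 12 and 11 in MEFs, pre-iPSCs and iPSCs.

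Vcam1 was the only member with calls in RNA, promoter H3K4me3 and H3K27me3 over the gene in both pre-iPSCs and iPSCs with TMM scaling, and of 13 alternatives 4 lost its H3K4me3 call in pre-iPSCs and 2 in iPSCs. Lox and Pdgfrb had calls in RNA and in H3K27me3 at the promoter and over the gene in both. At the promoter both had passed the filter on low counts through the later cells. Pdgfra, Dcn and Lum had no call in RNA or promoter H3K4me3 in any comparison. The primers with which the study assayed chromatin at Vcam1 (tttcaggagagatagccctttcg and ttctgagtcctgggaaacacg) match 90 bases at chr3:115832531-115832620 in mm9, and are shown because they lie at the start where the mark fell, from -14 to +75 of the TSS. Called nucleosomes meeting that stretch held 8 and 0 H3K4me3 reads in MEFs, then 2 and 1 in pre-iPSCs, then 4 and 1 in iPSCs. So few reads do not tell whether the mark changed in so short a stretch. Those of H3 held 5 and 3 reads in MEFs, then 18 and 18 in pre-iPSCs, then 17 and 9 in iPSCs, which are few as well. Within 1000 bp of the TSS, H3 at Vcam1 changed by -0.32 in pre-iPSCs and -0.02 in iPSCs against MEFs, and neither passed. No test was run on the stretch.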

How the data were processed

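RNA-seq gave 6 libraries and chromatin immunoprecipitation 21, and groups were taken from the labels. The authors mapped RNA-seq reads to mm9 with TopHat2 2.0.4 and deposited FPKM computed with Cufflinks 2.0.2, in 2 tables that each hold 1 library per cell type. ChIP reads were mapped with Bowtie 1.0.1 with at most 2 mismatches and shifted by 73 bp, and the authors deposited nucleosome calls with a read count and a fuzziness score per call. The depth of the RNA libraries is not given by FPKM, and whether the tables were normalised together is not given in the sources used here.

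Expression was tested as log2(FPKM + 1) with limma 3.58.1 (R 4.3.3) in all 6 libraries with cell type and table as terms, keeping genes whose mean reached 0.5 FPKM. Reads of calls within 1000 bp of the TSS or over the gene were summed and tested with the edgeR 4.0.16 quasi-likelihood test with TMM scaling and the default filter, with cell type as the only term; DESeq2 1.42.0 was an alternative. All p-values were adjusted over all tested genes by Benjamini-Hochberg and are two-sided. RPKM used uniquely mapped reads. Percentiles are over all 20156 genes. Intervals cover counting error only, and few reads per promoter limit precision. The test code was checked on simulated data.

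The members and lists were chosen with earlier results of these data known. Of each partner list at most 3 genes were named, those highest in MEFs, and Pdgfb, Omd, Prelp and Podn were added after their values were seen. Of marker lists the 2 highest genes were named where a result turned on them. Others, such as Nanog, were added after their values were seen.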

Additional observations from a re-analysis of the deposited data

How the results depend on the processing

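With 2 libraries per cell type, counts of members called moved with single libraries, and a fit without 1 library assumes that the remaining one varies like the others. Leaving out 1 library gave 3 to 7 members for expression in pre-iPSCs against MEFs, 2 to 9 in iPSCs against MEFs and 0 to 3 between iPSCs and pre-iPSCs, where it called 1025 to 2869, 655 to 3691 and 36 to 2133 of all genes (2032, 3206 and 1069 with all libraries). For H3K4me3 it gave 0 to 2, 1 to 3 and 0 members (98 to 905, 600 to 2286 and 0 to 70 of all genes, with 681, 2433 and 0 in all libraries), in pre-iPSCs and in iPSCs against MEFs and between the later cells. In the same order it gave 2 to 4, 1 to 2 and 0 for H3K27me3 around the TSS (396 to 860, 469 to 1190 and 9 to 129, with 843, 1167 and 83 in all libraries), 5 to 9, 5 to 7 and 0 over the gene (1281 to 4784, 1969 to 5587 and 4 to 316, with 3775, 4758 and 187), and 0 to 5, 0 and 0 to 1 for H3 (0 to 4589, 0 and 0 to 2146, with 0 in each). DESeq2 called 0 and 0 members for H3K4me3 and 1 and 0 for H3K27me3 around the TSS, in pre-iPSCs and iPSCs against MEFs. Uniquely mapped reads as library sizes gave 4 and 4 for H3K4me3, a window of 500 bp gave 0 and 1 for H3K4me3 and 1 and 1 for H3K27me3. Without a filter on low counts H3K4me3 gave 2 in pre-iPSCs, and with calls of at least 2 reads H3K27me3 around the TSS gave 2 in pre-iPSCs. Over the alternatives that kept every library, calls over all promoters ranged from 31 to 1353 and from 119 to 3197 for H3K4me3, in the same order. For H3K27me3 around the TSS they ranged from 54 to 854 and from 44 to 1205. For these settings the cause was not tested. Without a filter on low values, expression called 4 and 5 members against MEFs. Over the alternatives that kept every library, expression calls over all genes ranged from 1244 to 2179 and from 2371 to 3436. The sign against MEFs turned for Dcn and Lum with single libraries left out, with ranges of -0.48 to 2.26 and -0.15 to 2.99 in iPSCs, and of -2.43 to 0.82 and -1.87 to 1.63 in pre-iPSCs. Between iPSCs and pre-iPSCs it turned for Vcam1, with a range of -0.54 to 1.58, and for Lum, with a range of -0.21 to 3.29. Over all results of single genes, 520 kept direction and side of the threshold, 68 lost and 18 gained a call, and 9 reversed, not counting fits in which DESeq2 gave no adjusted p. The expression fit held the table, which coincides with the replicate number, as a term. Replicate numbers were not taken to pair the ChIP samples, since not every correlation passed 0.1, although H3 replicates of pre-iPSCs and iPSCs deviated together: the correlation of replicate differences between cell types was 0.35, 0.11 and -0.20 for RNA and -0.06, 0.80 and -0.01 for H3, and within 0.12 of 0 for both marks. Without the replicate block expression gave 6, 0 and 7 members, as with it. With a replicate block H3K4me3 gave 1, 0 and 2, and H3K27me3 around the TSS 4, 0 and 2 (Vcam1 lost in iPSCs). Over the gene H3K27me3 gave 9, 0 and 7, and H3 gave 0 in each. Calls over all genes ranged from 2783 to 3801, 0 to 204 and 3514 to 4741 over the gene, for the alternatives that kept every library. Between the later cells they were 788 to 1195 for expression, 0 to 21 for H3K4me3 and 0 to 91 for H3K27me3 around the TSS. Few reads per promoter limit H3K27me3 around the TSS.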

Other observations

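Dcn and Lum are neighbours on chromosome 10 in mm9, 47.3 kb apart and on the same strand. Of the genes beside them, Kera, a corneal proteoglycan gene, was listed at 0 in all 6 libraries, and Epyc, another small proteoglycan gene, at 0 in 4 libraries and at 0.0944 FPKM in MEF replicate 2 and 0.0473 in iPSC replicate 1. Btg1, on the other side, measured 13.4 and 21.8 FPKM in MEFs, then 10.6 and 20.4 in pre-iPSCs, then 4.99 and 12.2 in iPSCs. In every cell type the library with more Dcn also had more Lum. That library was also the higher for 9 of 10 members in pre-iPSCs, 9 of 10 in iPSCs and 4 of 10 in MEFs, counting Dcn and Lum.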
